A study of Mytilus galloprovincialis with 16 samples.

Results

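Of all cDNA clones printed on the mussel array, which came from 20 plates of 96 clones, 49 (2.55%) had a log2 ratio that was low at stage 2 of gonadal development, higher again at stage 3 and not lower after that, and carried no gene description. They were chosen by their values: the deposited log2 ratios were averaged over the 2 spots of a clone and the 4 arrays of a comparison, and a clone was kept at -0.5 or less for stage 2 over stage 1, at 0.3 or more for stage 3 over stage 2, and above -0.3 for stage 4 over stage 3. These limits held for 75 clones, of which 23 were dropped because a description was known and 3 because their identifier was that of the mitochondrial genome. Mantle RNA of single females of Mytilus galloprovincialis from the Bizerta Lagoon was compared at 4 stages of the gonad: early in November (stage 1), developing in January (stage 2), ripe in February (stage 3) and spawning in March (stage 4). The 16 dual-color arrays formed a loop, with 4 arrays each of stage 2 over stage 1, stage 3 over stage 2, stage 4 over stage 3 and stage 4 over stage 1, and the dyes swapped on 2 of each 4. The wild mussels received no treatment. The sources used here do not say which animal lies on which array, so a p-value covers only the spread among arrays. One label field of replicate 4 of stage 3 over stage 2 names stage 4, whereas its title and month name stage 3, as used here.

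In Mytilus the gonad grows into the mantle, so that this sheet of tissue changes from a store of glycogen and lipid with few germ cells to a tissue packed with oocytes, and empties when the gametes are shed. A ratio between 2 mantles thus reflects both which cells are present and what each cell transcribes, and in whole tissue fewer cells of a type and less RNA per cell cannot be told apart. The probes were 3′ cDNA clones from tissue libraries, many of them from transcripts whose translated sequence resembles no known protein. For 22 of the 49 members an EMBL identifier was found, through the study's list of changed genes, and none of the 22 had a listed sequence match. Only AJ624906 had a protein domain entry. Another 4 members were tied to rows of that list with no identifier, and 23 were tied to none and are named by clone, so their lack of a description may only mean that it was not found. The list holds only genes that the study called changed on these arrays.

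Signal was read against the empty spots, with their 95th percentile as the limit of background. All 49 members exceeded it in at least 16 of the 32 channels, as did 91.3% of all probes. In the channels of stage 1, stage 2, stage 3 and stage 4, all 8 channels were above it for 41, 43, 41 and 45 of the members. Among channels, 44.5% to 92.4% of the probe spots lay above it, and the number of arrays limits the precision. All ratios below are log2 ratios of the later over the earlier stage, normalized anew from the scanner intensities. On that scale the members had a median of -0.82 at stage 2 over stage 1, of 0.56 at stage 3 over stage 2 and of 0.00 at stage 4 over stage 3. The medians of all probes were -0.03, 0.03 and -0.02. These 3 comparisons made the choice and are given as a description with no test.

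The deepest dip belonged to Myt01-004F05, with -3.06, -2.96, -2.59 and -2.09 on the 4 arrays of stage 2 over stage 1 (mean -2.68 ± 0.44, SD, n = 4). On the arrays of stage 3 over stage 2 it had 1.21, 1.06, 1.97 and 1.82. At stage 4 over stage 3 its values of -0.35, 0.11, 0.06 and 0.77 lay on both sides of 0.
Myt01-004D01 followed with -2.67, -2.82, -2.24 and -1.92 at stage 2 over stage 1 (mean -2.41 ± 0.41, SD, n = 4). Its ratios of 2.50, 1.44, 2.47 and 2.14 at stage 3 over stage 2 were of nearly the same size in the other direction. In the last step they were -0.79, -0.31, -0.10 and 0.80.
Myt01-005F02 had -2.40, -2.30, -2.17 and -1.59 at stage 2 over stage 1, and 1.90, 1.73, 2.32 and 1.86 at stage 3 over stage 2. For stage 4 over stage 3 the values were -0.09, -0.19, 0.65 and 0.60.

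AJ625892 had -2.07, -2.60, -1.93 and -1.29 at stage 2 over stage 1, but a less even return, with 1.00, 1.22, 1.59 and -0.02 at stage 3 over stage 2. Among these deep dips it had the highest mean in the last step, with -0.03, 0.07, 0.76 and 1.48 at stage 4 over stage 3. AJ623623 had -2.43, -1.78, -1.78 and -1.46 at stage 2 over stage 1, and at stage 3 over stage 2 its 3.01, 1.97, 2.12 and 2.24 were the largest mean of the members, 2.34 ± 0.46 (SD, n = 4), or 5.05-fold. At stage 4 over stage 3 it stayed near 0, with 0.27, -0.07, 0.55 and -0.03.

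AJ623462 had -1.67, -1.95, -2.90 and -1.99 at stage 2 over stage 1, a mean of -2.13 ± 0.53 (SD, n = 4), which is 0.229 of the stage 1 level. At stage 3 over stage 2 it had 1.89, 1.80, 1.71 and 1.22, and at stage 4 over stage 3 -0.30, -0.05, -0.17 and -0.43. The return was thus smaller than the dip on average. AJ625629 had a shallower course of the same form, with -0.82, -1.20, -1.28 and -0.89, then 0.40, 0.53, 0.38 and 0.49, then 0.02, -0.25, 0.08 and 0.24. Its arrays lay closer together than those of most members. Myt01-004E10 had -0.98, -0.81, -2.16 and -0.44 at stage 2 over stage 1, where replicate 3 stood apart from the other arrays. It had 0.40, 0.48, 0.08 and 0.68 at stage 3 over stage 2 and 0.08, -0.29, 0.13 and -0.17 at stage 4 over stage 3.

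**Figure D1:**
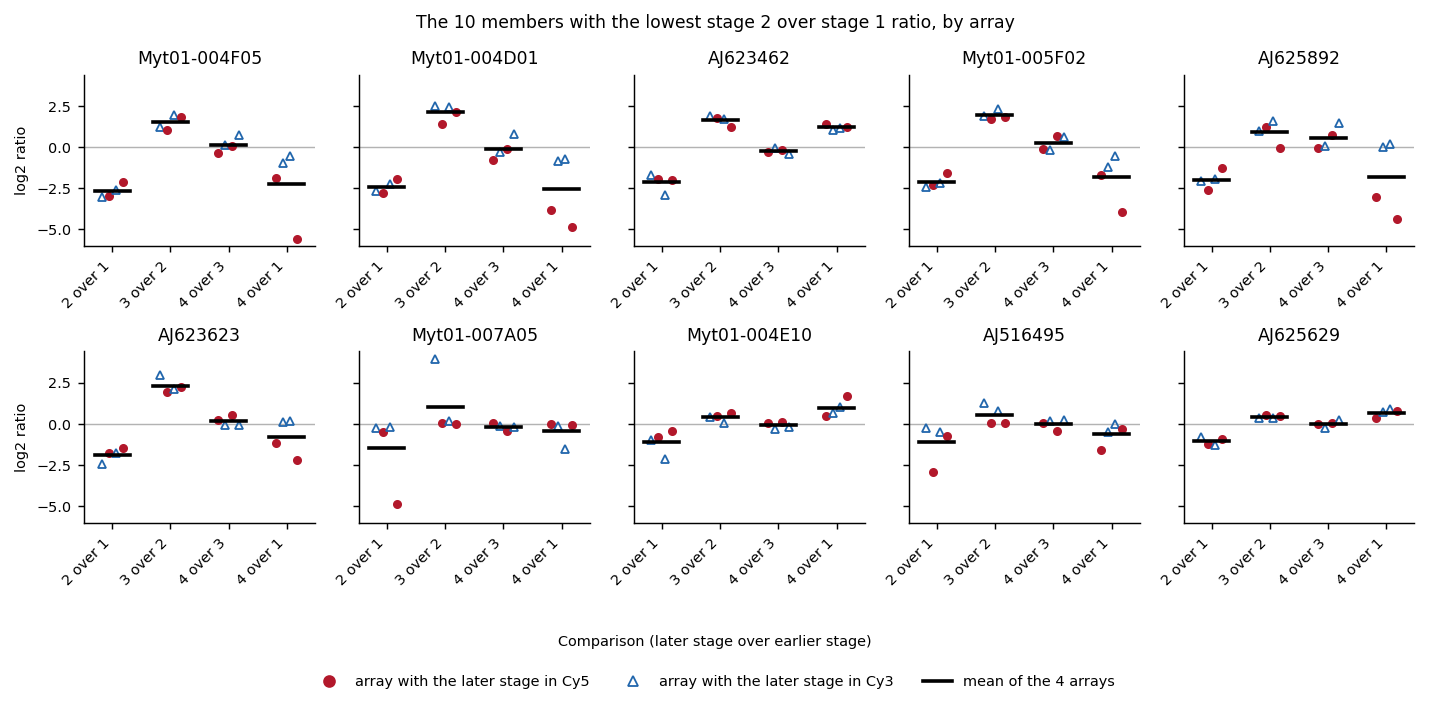
Log2 ratio (y axis) of the 10 members with the lowest stage 2 over stage 1 ratio in the 4 comparisons (x axis), with a point for each array marked by dye orientation and a bar at the mean of 4 arrays. Myt01-004F05, Myt01-004D01, AJ623462, Myt01-005F02, AJ625892 and AJ623623 were low on all 4 arrays of stage 2 over stage 1, whereas the mean of Myt01-007A05 came from 1 array at -4.88.

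In other members a single array made the mean. Myt01-007A05 had -0.22, -0.49, -0.20 and -4.88 at stage 2 over stage 1, and 3.94, 0.06, 0.16 and -0.02 at stage 3 over stage 2. Both spots of the clone showed the low value, at -4.31 and -5.44. In the other comparisons it had 0.09, -0.12, -0.42 and -0.20 at stage 4 over stage 3 and 0.02, -0.12, -1.50 and -0.06 at stage 4 over stage 1. Without that array it would not have met the first limit. AJ516495 had -0.23, -2.92, -0.48 and -0.73 at stage 2 over stage 1, with 1.30, 0.09, 0.82 and 0.05 at stage 3 over stage 2 and 0.07, 0.18, -0.43 and 0.22 at stage 4 over stage 3. Its dip was carried by replicate 2, and at stage 4 over stage 1 it had -1.56, -0.50, 0.03 and -0.33. Myt01-002F02 had -0.09, -2.60, 0.28 and -1.71 at stage 2 over stage 1, so that the arrays with stage 2 in Cy5 were low and those with stage 2 in Cy3 were not.
Over all members, the median SD between the 4 arrays of stage 2 over stage 1 was 0.53, against 0.20 for all probes. It was 0.43 in the 26 members tied to the list and 0.74 in the 23 not tied. All 4 arrays lay below 0 at stage 2 over stage 1 in 24 of the 26 tied members and in 15 of the 23 not tied. Of all probes, 392 did so. The list holds only genes that the study called changed on these same arrays, and such a call favours a low spread and an even sign. The differences between tied and not tied members, here and below, are therefore descriptions only. Replicate 2 of stage 2 over stage 1 was the lowest of the 4 arrays in 14 of the 23 not tied, against 28.9% of all probes.

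With each array of the 3 steps left out in turn, 16 of the 49 members met all 3 limits every time, and 13 of these were tied to the list. Membership depended most on replicate 2 of stage 2 over stage 1, without which 33 of the 49 members met the limits. From the arrays with the later stage in Cy5 alone 18 of the 49 met them, likewise 18 from the arrays with the later stage in Cy3, and 8 from both, all 8 tied. With median centring in place of loess 29 of the 49 met the limits, 3 of them on plate 1, and with no background correction 15 did. Just inside the first limit were AJ516864 at a deposited mean of -0.50 and Myt01-009C01 at -0.50, and just outside were Myt01-003E04 and AJ625893, both at -0.49. At the second limit Myt01-002F10 and AJ516440 were inside at 0.31 and 0.31, and Myt01-003A01 and Myt01-010D08 outside at 0.28 and 0.25. At the third, AJ625364 and Myt01-003G08 were inside at -0.26 and -0.24, and Myt01-001D09 and Myt01-001E09 outside at -0.32 and -0.32.

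The members were unevenly spread over the 20 plates. Plate 1 held 15 of the 49 members (30.6%), with 5% of the clones, while of the 26 dropped clones of the same shape it held 3 (11.5%). Plate 4 held 8 members, plate 3 held 5 and plate 15 held 4, and plates 6, 8, 10, 13, 19 and 20 held none. The 15 on plate 1 included 10 of the 11 identifiers of the AJ516 series, and most came from neighbouring wells: AJ516386 from B03, AJ516409 and AJ516410 from C03 and C04, AJ516423 to AJ516426 from D02 to D05, AJ516440 from E03 and AJ516460 from F04. Because of the print order, 13 of the 15 lay in print row 2 of a block, with the second spot in row 9. Row 2 held 23 of the 49 members and 288 clones, and its members included clones of plates 2, 3 and 4. Row 3 held 11 members, also with 288 clones, and rows 4 to 8 held 1 to 6 members each. The members were thus uneven over print rows as well as plates, and the cause was not tested.

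**Figure D2:**
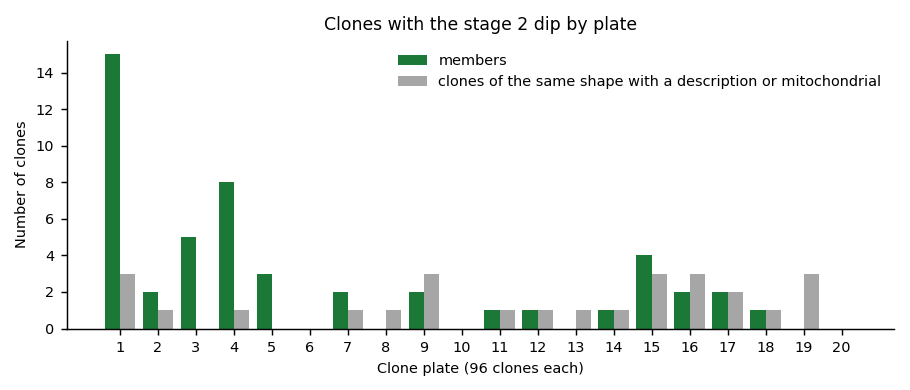
Number of clones (y axis) with the stage 2 dip on each plate of 96 clones (x axis), for the 49 members and for the 26 clones of the same shape that had a description or the mitochondrial identifier. Plate 1 held 15 members and plate 4 held 8.

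The members of plate 1 had a median of -0.78 at stage 2 over stage 1, close to the -0.84 of the members of other plates, and their dip was uneven between the dyes. AJ516440 had -0.52, -1.70, -0.21 and -1.40 at stage 2 over stage 1, AJ516409 had -0.48, -1.29, -0.30 and -1.34, and AJ516423 had -0.53, -1.18, -0.16 and -1.25. Replicates 2 and 4, with stage 2 in Cy5, were the lower arrays in each of the 3. At stage 3 over stage 2 AJ516440 had 0.38, 0.23, 0.27 and 0.13, AJ516409 had 0.84, 0.38, 0.48 and 0.38, and AJ516423 had 0.78, 0.43, 0.40 and 0.16. Their ratios continued upward in the last step. At stage 4 over stage 3 AJ516440 had 0.98, 0.49, 1.39 and 0.91, AJ516409 had 0.69, 0.42, 1.13 and 0.88, and AJ516423 had 0.96, 0.47, 1.42 and 0.69. For the 15 members of plate 1 the median of that step was 0.43, whereas it was -0.07 for the 34 members of other plates.
AJ516424 and AJ516425 had mean ratios of -0.92 and -0.86 at stage 2 over stage 1, AJ516460 had -0.90 and AJ516426 had -0.75. AJ516410 had a mean of -0.82, and AJ516386, the shallowest of the identified plate 1 members, had -0.51 ± 0.54 (SD, n = 4). Between the 15 members, deviations from the comparison means over the 16 arrays correlated with a median r of 0.52 over 105 pairs. The median was 0.17 over the 1176 pairs of all members and 0.08 over the 3240 pairs of other clones of plate 1. These are descriptions, since the points share arrays, dyes and print positions, and no p is given.

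In the remaining identified members the size of the return differed more than the size of the dip. AJ625364 had a mean of -0.63 ± 0.21 at stage 2 over stage 1 and 1.95 ± 0.33 at stage 3 over stage 2 (SD, n = 4 each). AJ626451 had -0.49 ± 0.42 and 1.51 ± 0.07, and AJ624906, the member with a domain entry, -0.86 ± 0.23 and 1.49 ± 0.12. In these the step up was larger than the step down on average. AJ623588 had -0.98, -1.12, -0.95 and -0.69 at stage 2 over stage 1 and 1.35, 1.10, 1.15 and 1.09 at stage 3 over stage 2, with -0.13, -0.34, -0.05 and 0.20 at stage 4 over stage 3. It was among the most even of the members, with an SD of 0.18 in the first step. AJ623483 had a mean of -0.95 ± 0.98 at stage 2 over stage 1, AJ623413 -0.67 ± 0.55, AJ625046 -0.61 ± 0.32 and AJ516864 -0.49 ± 0.26 (SD, n = 4 each). For AJ623483 the SD was thus as large as the mean.

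The 4 arrays of stage 4 over stage 1 did not enter the 3 limits, although the pairing by which described clones were dropped used coefficients from all 16 arrays. The same stage 1 and stage 4 animals may also lie on arrays that the limits used, so the ratios of stage 4 over stage 1 may depend on the choice. In this comparison the question was whether the level at spawning had come back to that of early gonads. The members' median was -0.52, where that of all probes was -0.09 and that of the 26 dropped clones of the same shape -0.47. On single arrays the members' median lay between -0.51 and -0.36. The means of 42 members were below 0 and of 7 above 0, where 63.6% of all probes were below 0. Calls required an adjusted p under 0.05 over all probes (limma, Benjamini-Hochberg) together with a positive B, the log odds of change. Of the 49 members 6 fell (4.69% of all probes did so) and 2 rose (2.81% of all probes). All 8 were among the 26 tied members, which the study had itself chosen on these arrays, and 0 of the 23 not tied were called, although by unadjusted p under 0.05 there were 7 lower and 2 higher among these, where 24.1% and 15.3% of all probes were lower and higher. Below 0 on all 4 arrays were 26 of the 49 members, against 22.5% of all probes, and above 0 on all 4 were 4, against 13.8%. With arrays centred on their medians in place of loess, 1 member was lower and 4 were higher (3.12% and 12.5% of all probes), and the members' median was -0.10, as was that of all probes.

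AJ623588 had -2.19, -0.95, -1.34 and -0.98 at stage 4 over stage 1 and fell by 1.37 ± 0.16 (SE; adjusted p = 2.03e-05, limma), to 0.388 of the stage 1 level. It kept its call under all 22 alternatives run, with changes between -1.87 and -0.65, the smallest with no background correction. Myt01-004D01 had -3.83, -0.84, -0.74 and -4.87 and a change of -2.57 ± 0.51 (SE; adjusted p = 0.00243). Myt01-005F02 had -1.69, -1.22, -0.51 and -3.96 and a change of -1.85 ± 0.36 (SE; adjusted p = 0.00228). In both clones replicates 1 and 4, with stage 4 in Cy5, were the lowest, and neither was called without replicate 1 or from the arrays with stage 4 in Cy3 alone, where the changes were -0.79 and -0.87. Myt01-004D01 was not called without replicate 4 either. With print-tip loess the changes were -1.24 and -0.40, neither called (adjusted p = 0.0477 and 0.201), and in all Myt01-004D01 lost its call under 10 of the 22 alternatives and Myt01-005F02 under 8.
Of the plate 1 members, AJ516440 had -0.60, -1.32, -1.23 and -0.93 (change -1.02 ± 0.20, SE; adjusted p = 0.00235). AJ516409 had -0.64, -1.05, -1.07 and -0.80 (change -0.89 ± 0.16; adjusted p = 0.00126), and AJ516423 had -0.65, -0.84, -0.70 and -1.17 (change -0.84 ± 0.18; adjusted p = 0.00342). Their arrays were much closer together than those of the 2 clones above, and all were below 0. With median centring in place of loess, however, the 3 changes were 0.32, 0.30 and 0.42, none called, and with no background correction -0.64, -0.47 and -0.47, also not called. AJ516440 and AJ516423 lost their calls without replicate 2, replicate 3 or replicate 4, AJ516409 without replicate 2 or replicate 3, and AJ516423 also without replicate 1. With replicate 1 left out, 3 of the 49 members fell (4.11% of all probes did so).

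AJ623462 was higher at stage 4 on every array, with 1.38, 1.07, 1.14 and 1.26, a change of 1.21 ± 0.16 (SE; adjusted p = 5.66e-05) or 2.32-fold. AJ625629 had 0.35, 0.76, 0.89 and 0.79 and rose by 0.70 ± 0.11 (SE; adjusted p = 0.000284), or 1.62-fold. Their calls were lost in the loop fit over all 16 arrays, where the changes were 0.73 and 0.38, and that of AJ625629 also from the arrays with stage 4 in Cy5 alone (0.57). On the direct arrays neither overlapped 0. With median centring both changes were larger, at 2.47 and 1.82. Higher means than that of AJ625629, but with more spread, were those of Myt01-004E10, with 0.52, 0.66, 1.02 and 1.71, and Myt01-003G07, with 0.52, 0.71, 0.73 and 1.44. Their adjusted p-values were 0.00552 and 0.00636, but B was below 0, and they were not called. Myt01-003G07 had shown -0.46, 0.04, -0.95 and -0.62 at stage 2 over stage 1, 1.53, 0.38, 0.29 and 0.29 at stage 3 over stage 2, and 0.03, 0.04, 0.27 and -0.07 at stage 4 over stage 3.
At the low end, Myt01-004F05 had -1.90, -0.98, -0.55 and -5.57 (change -2.25 ± 0.54, SE; adjusted p = 0.00746). Myt01-015F02 had -3.42, -0.10, -0.43 and -3.46 (change -1.85 ± 0.44, SE; adjusted p = 0.00686). Neither was called, since B was below 0. With print-tip loess the change of Myt01-004F05 was -0.069 (adjusted p = 0.942). Myt01-015F02 had a smaller dip than the others of this form, with -0.32, -0.84, -0.87 and -0.44 at stage 2 over stage 1, then 1.43, 0.97, 1.53 and 0.73, then -0.45, 0.11, 0.11 and 0.69.

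**Figure D3:**
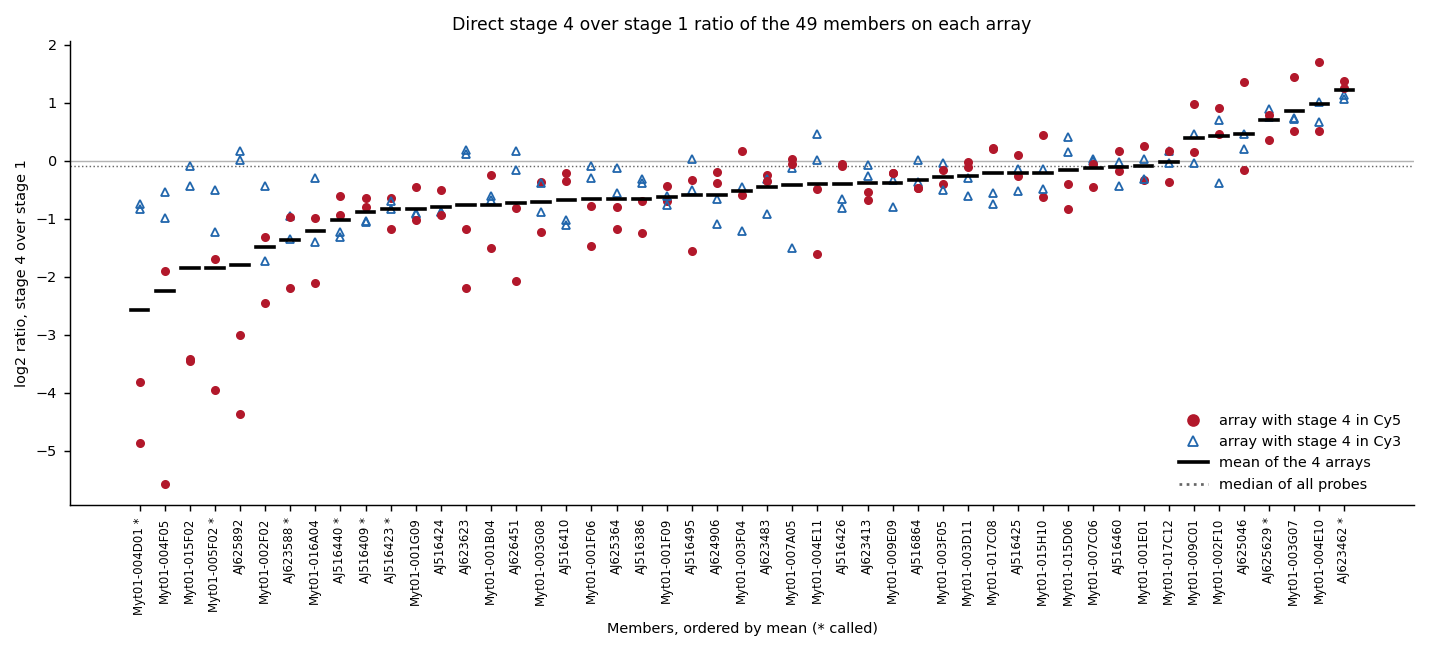
Log2 ratio of stage 4 over stage 1 (y axis) of each of the 49 members (x axis, ordered by mean) on the 4 arrays, with points marked by dye orientation, a bar at the mean, an asterisk for called members and a dotted line at the median of all probes, -0.09. The lowest members were split by dye orientation, whereas the 4 arrays of AJ623462 lay between 1.07 and 1.38.

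At stage 4 over stage 1 a few members were split by dye. In 4 of the 49, Myt01-004D01, Myt01-015F02, AJ625892 and AJ623623, both arrays with stage 4 in Cy5 were lower than both with stage 4 in Cy3 by more than 1 log2 unit, and in 0 the reverse held. The same split was present in 37 of all probes (1.93%) and in 7 of the 26 dropped clones of the same shape. AJ625892 had -3.01 and -4.37 with stage 4 in Cy5 and 0.01 and 0.17 with stage 4 in Cy3, and AJ623623 had -1.17 and -2.20 against 0.12 and 0.19. Over all members the median was -0.56 with stage 4 in Cy5 and -0.34 with stage 4 in Cy3, and 25 of the 49 were lower in the first (51.0% of all probes).
At stage 2 over stage 1 the difference between the dyes was wider. The members' median was -1.16 on the arrays with stage 2 in Cy5 and -0.38 on those with stage 2 in Cy3, and 32 of the 49 were lower in the first. Of all probes 52.0% were lower in the first, with a median difference of -0.02. All 15 members of plate 1 were lower in Cy5, with medians of -1.24 and -0.34. At stage 3 over stage 2 the members' medians were 0.38 with stage 3 in Cy5 and 0.88 with stage 3 in Cy3. There 42 of the 49 were lower in Cy5 (50.2% of all probes), among them all 15 of plate 1. At stage 4 over stage 3 they were -0.03 with stage 4 in Cy5 and 0.02 with stage 4 in Cy3, while the plate 1 members stood at 0.74 and 0.21. Each dye orientation of a comparison is 2 arrays that may also hold different animals, so dye and animal cannot be told apart.

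**Figure D4:**
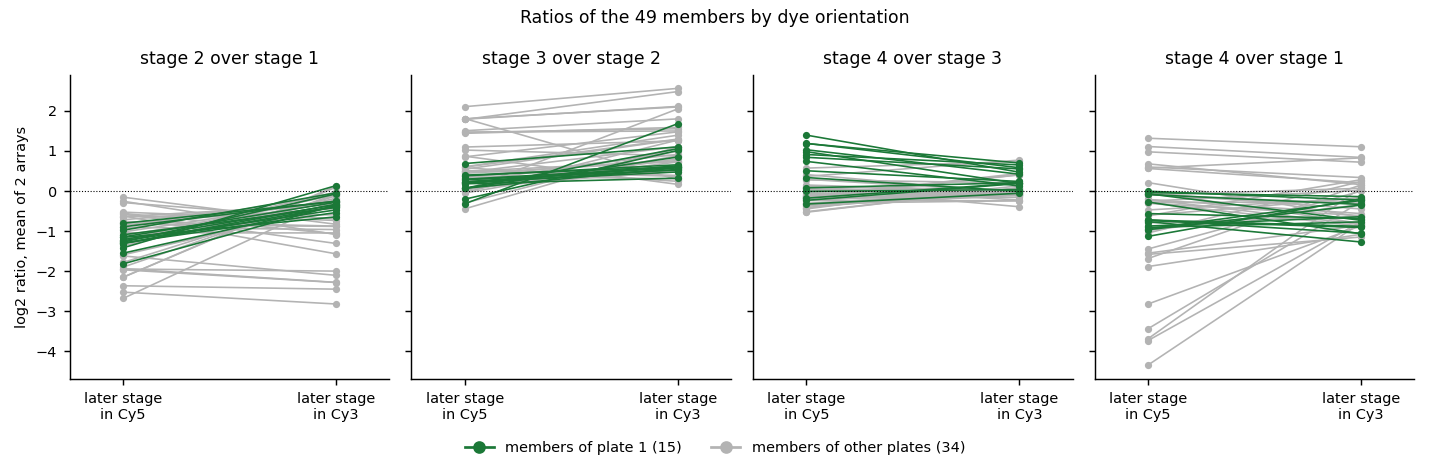
Log2 ratio (y axis, mean of 2 arrays) of each member on the arrays with the later stage in Cy5 and on those with the later stage in Cy3 (x axis), for the 4 comparisons, with the 15 members of plate 1 in green and the 34 of other plates in grey. The green lines all run upward from Cy5 to Cy3 at stage 2 over stage 1, with medians of -1.24 and -0.34.

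The 4 comparisons close a loop, so that the sum of the 3 steps and the direct arrays measure the same change of stage 4 over stage 1. For the members the median sum of steps was 0.02, and the direct median was -0.52. The sum was above the direct value in 35 of the 49, with a median difference of 0.45, where that of all probes was 0.11. The choice of members fixed part of the sum, so the difference is a description. In all 15 members of plate 1 the sum was above the direct value. In Myt01-015F02 the sum was 0.67 and the direct value -1.85, and in Myt01-004D01 they were -0.37 and -2.57. AJ623462 and AJ625629 went the other way, with sums of -0.71 and -0.57 beside direct values of 1.21 and 0.70. For these 2 clones the steps placed stage 4 below stage 1 and the direct arrays placed it above.

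**Figure D5:**
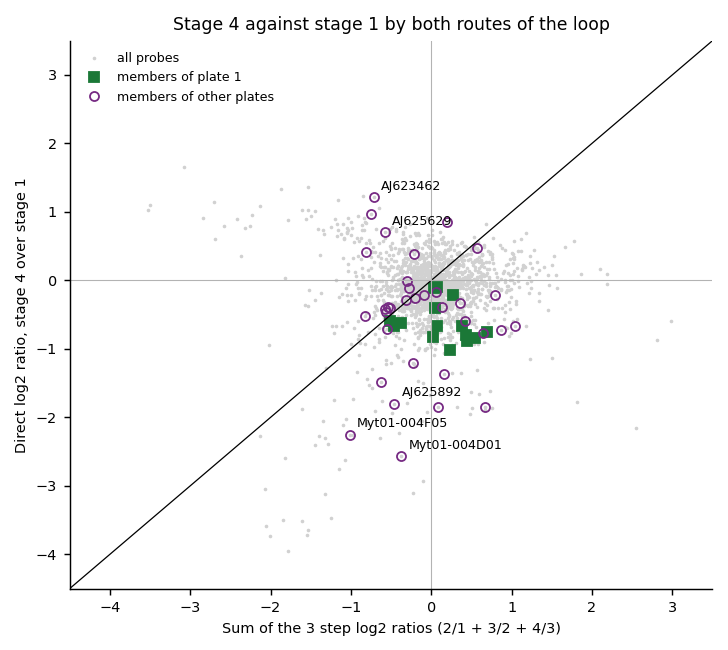
Direct log2 ratio of stage 4 over stage 1 (y axis) against the sum of the 3 step ratios (x axis) for the members of plate 1, the members of other plates and all probes, with the line of equal values. AJ623462 lies at a sum of -0.71 and a direct value of 1.21, and Myt01-004D01 at -0.37 and -2.57 (2 probes lie outside the axes).

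Each named member was also set beside the described genes. The likeness was measured as the correlation of deviations from the 4 comparison means over the 16 arrays, and for each named member the highest among 208 described clones was taken, after values had been seen and with no p. Myt01-004D01 was most like AJ626199, ribosomal protein L23a of the large ribosomal subunit (r = 0.98). That clone had the same shape, with changes of -2.06 at stage 2 over stage 1 and 1.88 at stage 3 over stage 2, and on the direct arrays it had the same split, with -2.71, -0.27, -0.37 and -4.35. Myt01-015F02 was most like AJ626374, a ribosomal protein S27-like transcript (r = 0.96), which had -2.93, -0.19, -0.25 and -3.08 on the direct arrays. AJ625892 was most like AJ625243, described as a p63 and p73-like protein (r = 0.95). Myt01-004F05 and Myt01-005F02 were both most like AJ625043, described as mflj00348 protein (r = 0.95 and 0.96). Of the 10 plate 1 members with an identifier, 5 were most like AJ625548, ribosomal protein S26 of the small subunit, among them AJ516425 (r = 0.96) and AJ516423 (r = 0.95). AJ625548 had changes of -0.91, 0.40 and 0.87 in the 3 steps and -0.85 directly. AJ516440 and AJ516410 were most like AJ516441, described as SMC hinge domain containing 1 (r = 0.93 and 0.90), a clone from well E04 of plate 1. AJ516386 was most like AJ625872, a vitelline envelope protein of the egg coat (r = 0.79). Over the named members the highest r had a median of 0.87 and ranged from 0.66 to 0.98. The best of 208 is high by its choice, and the same maximum was not taken for other probes. Some best matches had an unlike course. That of AJ623483 was AJ624829, ribosomal protein S20 (r = 0.83), with 0.05 at stage 2 over stage 1 and -0.30 at stage 3 over stage 2.
Among members, the closest pair was Myt01-004F05 and Myt01-005F02 (r = 0.96), which came from different plates. AJ516409 and AJ516440 came next (r = 0.95). Myt01-004D01 had r = 0.94 with Myt01-015F02 and 0.93 with AJ625892, again on different plates. These correlations are over 16 arrays that share dyes and may share animals.

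Markers of cell types were read beside these ratios. Both egg-coat probes were above the empty spots in all 8 channels of every stage. AJ625872 was itself a dropped clone of the same shape, with -1.41 at stage 2 over stage 1, 1.67 at stage 3 over stage 2 and a fall of 1.63 at stage 4 over stage 1 (limma adjusted p = 0.000459), and AJ625914 had -0.36, 1.09 and 0.09 there. The germ granule probe AJ623653 had -1.71 at stage 2 over stage 1, 2.16 at stage 3 over stage 2 and -0.56 at stage 4 over stage 3, and fell by 2.06 at stage 4 over stage 1 (limma adjusted p = 0.000591). Of 7 digestive gland probes, 6 fell at stage 4 over stage 1 and 0 rose, with a median of -2.28 (-1.44 with median centring, -1.34 with no background correction). In contrast to the members their median was 1.00 at stage 2 over stage 1 and -2.02 at stage 3 over stage 2. The remaining probe of this list, AJ624381, went another way. It had -0.95 and -0.02 in these steps and 0.33 at stage 4 over stage 1, where it was not called. AJ624093, AJ624637 and AJ625569 of the list are chitinases, which the paper also reports as lower in female mantle, so they need not mark digestive gland cells here. Of the 3 muscle probes 1 fell at stage 4 over stage 1, and of the 3 probes of male germ line or cilia 0 were called. The muscle probe AJ624863 was also a dropped clone of the same shape, with -0.58 at stage 2 over stage 1 and 1.24 at stage 3 over stage 2. The other muscle probes, AJ623579 and AJ625071, had 0.09 and 0.33 at stage 2 over stage 1, then -0.80 and -0.42. The part of these cell types in the members' ratios was not tested.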

How the data were processed

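Spots were quantified by the authors in GenePix, and the deposited intensity values give, for Cy5 and Cy3, a spot's mean and the median of its surroundings. They also deposited log2 ratios made with limma (version not given in the sources used here) by offset background subtraction and loess. The deposited log2 ratios run as channel 1 over channel 2, the later over the earlier stage, were matched to spots by row, and were used to apply the rule for the members.

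Starting from the intensities, normexp with an offset of 50 was used for the background and loess within arrays for normalization, control spots having weight 0, and the 2 spots of a clone were averaged (R 4.3.3, limma 3.58.1). All 16 arrays entered 1 fit of 4 comparison means, with 0.01 as the prior share of changed probes and 12 residual degrees of freedom, and p-values were adjusted over 1920 probes. The fit was tested on simulated data. Clones were paired with EMBL identifiers through the study's list of changed genes by their stage coefficients (368 rows, tolerance 0.005, largest difference 0.00303, next clone 0.0152). The members and lists were chosen with earlier results of these data known. Named were all members with an identifier, the 6 lowest without one, those called or most extreme at stage 4 over stage 1, and those at the limits. Alternatives covered background correction, normalization, the fit, the threshold and arrays left out. No sequence is printed for the clones.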

Additional observations from a re-analysis of the deposited data

Results flagged for a closer look

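Of 120 sets of 4 arrays (30 named members in 4 comparisons), 11 held an array far from the other 3 by Dixon's test. Of these, 8 lay among the 90 sets of the 3 steps, whose means chose the members, so that no share expected by chance applies to them. The other 3 lay among the 30 sets of stage 4 over stage 1. Some members were named for their values in that comparison, so no share expected by chance is given there either. Myt01-007A05 had 3 of them: -4.88 on replicate 4 of stage 2 over stage 1 (others -0.49 to -0.20), 3.94 on replicate 1 of stage 3 over stage 2 (others -0.02 to 0.16) and -1.50 on replicate 3 of stage 4 over stage 1 (others -0.12 to 0.02). Replicate 1 of stage 3 over stage 2 was also the high array for Myt01-002F02 at 1.06 (others 0.41 to 0.46), for AJ516425 at 0.75 (others 0.27 to 0.30) and for Myt01-003G07 at 1.53 (others 0.29 to 0.38). Myt01-002F02 had a low array at stage 4 over stage 3 as well, replicate 3 at -0.81. AJ623413 had -0.10 on replicate 4 of stage 3 over stage 2, where the other arrays had 1.27 to 1.52. AJ626451 had 1.62 on replicate 3 of that comparison (others 1.46 to 1.49). On the direct arrays of stage 4 over stage 1, AJ623483 had -0.92 on replicate 3 (others -0.36 to -0.25) and AJ516424 had -0.51 on replicate 1 (others -0.94 to -0.88).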

How the results depend on the processing

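The rule, applied to deposited ratios, gave 49 clones, and 44 of the 49 members met its limits after the normalization used here. Counts within 1.5 times were taken as unchanged. With median centring 29 members met the limits (3 of the 15 of plate 1), with no background correction 15 members (19 clones in all), with medians over the 4 arrays 29, and from the arrays with the later stage in Cy5 or in Cy3 alone 18 each (30 clones for Cy3). Plain background subtraction gave 86 clones. Leaving out 1 array gave 35 to 60 clones and 33 to 49 members. With no background correction the members' median was -0.46 at stage 2 over stage 1 and 0.34 at stage 3 over stage 2 (-0.82 and 0.56 as reported), and with plain subtraction -1.18 and 0.77.

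At stage 4 over stage 1, where 6 members were lower and 2 higher with a median of -0.52, no background correction gave 1 lower (2.76% of all probes) and a median of -0.23. Plain subtraction gave 1 lower, 4 higher (4.74% and 5.10% of all probes) and -0.60. Median centring gave 1, 4 (3.12% and 12.5%) and -0.10, and print-tip loess 3 lower (4.01%) and -0.40. Spots kept separate gave 13 lower (6.46% of all probes), array quality weights 2 lower (3.33%), and the loop fit 1 lower, 0 higher (3.23% and 0.99%) and -0.41. By adjusted p alone 19 were lower and 4 higher (14.0% and 10.1% of all probes), with a prior share of 0.1 16 and 4 (10.99% and 8.54%), and with a log2 change of at least 1 only 1 higher (0.68%). Chosen after seeing the data, the arrays with stage 4 in Cy5 alone gave 1 higher (2.19% of all probes), and those with stage 4 in Cy3 alone 2 lower (4.01%) and -0.34. Leaving out 1 array gave 3 to 6 lower (3.85% to 4.90% of all probes), 2 higher throughout (1.51% to 3.59%), and medians of -0.55 to -0.49. With median centring the members' median equalled that of all probes, -0.10, and the plate 1 members' was 0.32. Median centring turned the sign of 15 of the 49 members, 11 of them named: AJ623623 (0.51), AJ516495 (0.49), AJ516440 (0.32), AJ516424 (0.51), AJ516460 (1.10), AJ516425 (0.93), AJ516409 (0.30), AJ516410 (0.24), AJ516423 (0.42), AJ516426 (0.70) and AJ625364 (0.038). Plain subtraction turned 2 members, with AJ516460 (0.068) named, and stage 4 in Cy3 alone turned 6, with AJ625892 (0.090) and AJ623623 (0.15) named. The causes were not tested.

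The replicate block left 6 lower and 2 higher (4.17% and 2.55% of all probes), of which 7 calls were shared, and Myt01-004D01 lost its call (adjusted p = 0.00504). Between arrays of the same replicate number, the 24 correlations of deviations from the comparison means lay between -0.21 and 0.19. At stage 2 over stage 1 and stage 3 over stage 2, arrays of the same number also shared their dye orientation. These values therefore cannot tell whether arrays of the same number share animals. No slide or scan date was given, so no batch could be fitted. On all 4 arrays of stage 4 over stage 1 fewer spots were above background in the stage 1 channel than in the stage 4 channel. From replicate 1 to 4 the shares were 44.5%, 67.8%, 78.2% and 75.8% for stage 1, and 79.5%, 88.3%, 87.3% and 86.25% for stage 4. The stage 1 channels of stage 2 over stage 1 had 79.8% to 89.7%. This limits the ratios of stage 4 over stage 1, most on replicate 1.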

Other observations

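Outside the rule for named genes, 2 further members were picked after their values were seen. Myt01-017C08, tied to a row with no identifier, had a mean of 0.65 at stage 4 over stage 3 after -0.82 and 0.95 in the first 2 steps, and -0.22 at stage 4 over stage 1. Myt01-016A04 had -0.99, -0.31, -1.41 and -2.11 at stage 4 over stage 1, below 0 on all 4 arrays, with a limma adjusted p of 0.0245 and B below 0, so that it was not called.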
